A study of Homo sapiens with 12 samples.

Results

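The genes described here make cholesterol and fatty acids, sense sterols, or move cholesterol out of and into the cell. The list names 35 such genes by symbol. Each was read from an array probe set that the platform annotation assigns to that symbol alone and, where several qualified, from the one that was brightest on average over the 12 arrays. A probe set of this kind was found for 32 of the 35, and FDFT1, CYP51A1 and FADS1 were not analysed here. All 32 were among the 9888 of 19775 genes that were bright enough to be tested. FADS2 passed that filter only through its signal in the Pfeiffer line.

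The study knocked down BCL6, a repressor that germinal centre B cells depend on, in OCI-Ly7 and Pfeiffer, which are established lines of human diffuse large B-cell lymphoma of the germinal centre type, grown in IMDM with fetal bovine serum. The 4 groups were OCI-Ly7 cells given BCL6 siRNA, OCI-Ly7 cells given a non-target control oligonucleotide, Pfeiffer cells given BCL6 siRNA, and Pfeiffer cells given the non-target control. Each had 3 Affymetrix U133 Plus 2.0 arrays of total RNA taken 48 h after transient transfection. For the Pfeiffer controls the sample titles name an shRNA while the sample descriptions and the series' design text name an siRNA, so the type of that control oligonucleotide is not settled by the labels. Whether replicate arrays stem from independent cultures is not stated, and a p-value here covers only the variation among the arrays given, which may be technical. All cells of a culture were measured together, so fewer cells of a type and less RNA per cell cannot be told apart.

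Levels are given as log2(signal + 16) of the deposited array signals, and changes as BCL6 siRNA minus control on the same scale with the standard error (SE). Tests are limma's moderated tests, two-sided, adjusted by the Benjamini-Hochberg method over all 9888 genes, with 0.05 as the threshold. Levels of different probe sets are not compared with each other. The targeted gene fell in both lines. BCL6 read 13.13, 13.10 and 13.15 on the OCI-Ly7 siRNA arrays, against 13.50, 13.57 and 13.59 on the OCI-Ly7 control arrays, a change of -0.42 ± 0.08 (SE, limma adjusted p = 0.00731) that left 74.6% of the control signal. It read 13.11, 13.04 and 12.75 on the Pfeiffer siRNA arrays, against 13.86, 13.92 and 14.01 on the Pfeiffer control arrays, a change of -0.96 ± 0.08 (SE, limma adjusted p = 5.31e-07) that left 51.3%. The groups did not overlap in either line. The B cell markers CD79A, CD79B, MS4A1, CD22 and PAX5 were all bright enough to be tested, with group means between 8.10 for CD22 on the Pfeiffer siRNA arrays and 14.66 for MS4A1 on the OCI-Ly7 siRNA arrays. In OCI-Ly7 CD79A and CD79B rose (0.36 and 0.38), and in Pfeiffer 4 of the 5 fell, with changes from -0.39 for MS4A1 to -0.97 for CD22, beside the changes reported below. Their part in those changes was not tested. Markers of T cells, myeloid cells and erythroid cells were too dim to be tested, with group means of at most 7.18. Of the germinal centre markers, SERPINA9 was too dim as well. MME averaged 13.08 in OCI-Ly7 controls and 8.31 in Pfeiffer controls, and MYBL1 averaged 12.31 and 9.18. After siRNA MYBL1 fell in both lines (-0.47 in OCI-Ly7 and -0.92 in Pfeiffer), while MME rose in Pfeiffer (0.49). The part of these markers in the changes below was not tested either.

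Cells build cholesterol from acetyl-CoA, through mevalonate and farnesyl diphosphate to squalene, which is closed into lanosterol and then trimmed in several steps. SREBP transcription factors drive the genes of this pathway and of fatty acid synthesis. When sterols are plentiful, INSIG proteins hold the SREBP escort SCAP in the endoplasmic reticulum and keep SREBP from being activated. Liver X receptors, which bind oxysterols, act in the opposite arm and induce the cholesterol exporters ABCA1 and ABCG1, the ubiquitin ligase MYLIP, which sends lipoprotein receptors to degradation, and SREBF1.

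SREBP proteins are known to bind sterol regulatory elements next to CCAAT boxes, so the RefSeq promoter windows (GRCh38.p14, from 250 bases before to 50 after each annotated start) were searched on both strands for CACNCCAC, the core of such an element, for CCAAT, for the E-box CACGTG, and for TTCNNNGAA, the inverted repeat within the known BCL6 binding motif. Windows were held for 30 of the 35 genes and not for ACAT2, FDFT1, SQLE, FASN and ABCG1. CCAAT occurred in 21 of the 30 (70.0%), against 39.7% of the 27305 genes with a window, and in 8 of 9 genes of the squalene and sterol steps. CACNCCAC occurred in 7 of the 30 (23.3%, against 7.05% of all genes), CACGTG in 5 (16.7%, against 8.77%) and TTCNNNGAA in 0 (against 9.38%). A gene was counted if any window of its annotated starts held the letters. A match is only an occurrence of these letters. Stretches of 6 promoters are printed because these genes carried the changes reported below, INSIG1 with the largest rise in Pfeiffer, HMGCS1, IDI1, MSMO1 and DHCR7 among the enzymes that rose in OCI-Ly7, and SC5D with a fall in Pfeiffer. Where a gene has several annotated starts, the stretch comes from the window with the most matches before the start, so it was chosen for its matches. The stretches read in the direction of the gene, 5′ to 3′, and capitals mark a match to CCAAT, CACNCCAC or CACGTG on either strand. They lie at chr7:155297660-155297838 (plus strand) for INSIG1, chr5:43313498-43313577 (minus strand) for HMGCS1, chr10:1048959-1049028 (minus strand) for IDI1, chr4:165327474-165327649 (plus strand) for MSMO1, chr11:71448427-71448497 (minus strand) for DHCR7 and chr11:121292630-121292801 (plus strand) for SC5D.
INSIG1: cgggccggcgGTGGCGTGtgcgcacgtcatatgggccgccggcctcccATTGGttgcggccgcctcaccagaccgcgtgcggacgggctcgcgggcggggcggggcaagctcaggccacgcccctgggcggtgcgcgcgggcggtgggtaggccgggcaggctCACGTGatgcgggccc
HMGCS1: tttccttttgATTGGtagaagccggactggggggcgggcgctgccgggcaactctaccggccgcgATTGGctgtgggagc
IDI1: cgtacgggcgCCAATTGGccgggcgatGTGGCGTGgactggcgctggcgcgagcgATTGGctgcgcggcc
MSMO1: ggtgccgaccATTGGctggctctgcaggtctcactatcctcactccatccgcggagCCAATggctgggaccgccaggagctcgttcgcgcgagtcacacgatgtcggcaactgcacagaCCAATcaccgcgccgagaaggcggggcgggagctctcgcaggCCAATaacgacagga
DHCR7: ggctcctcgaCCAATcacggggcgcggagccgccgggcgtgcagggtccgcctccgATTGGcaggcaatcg
SC5D: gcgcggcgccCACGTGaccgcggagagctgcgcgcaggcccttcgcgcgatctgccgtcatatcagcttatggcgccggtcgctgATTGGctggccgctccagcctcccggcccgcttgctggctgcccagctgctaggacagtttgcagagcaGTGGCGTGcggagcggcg
The stretch of INSIG1 held all 3 kinds of match, as did that of SC5D. The stretch of IDI1 held CACNCCAC beside 3 matches to CCAAT, of which 2 overlap, and those of HMGCS1, MSMO1 and DHCR7 held CCAAT alone, MSMO1 with 4 matches.

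In OCI-Ly7, BCL6 siRNA was followed by modest rises among the enzymes of cholesterol synthesis. In Pfeiffer most of the enzymes did not pass the test, INSIG1 and INSIG2 rose, and ABCA1, ABCG1 and MYLIP fell. Tested as a difference between the lines on the brightest probe sets, INSIG1 and INSIG2 passed, as did LSS among the enzymes that rose in OCI-Ly7. None of the mevalonate genes passed there, and neither did ABCA1, ABCG1 or MYLIP. Of the 32 genes, 6 rose and 1 fell in OCI-Ly7 (21.9%), where 2.68% of all 9888 genes changed, 1.69% upwards and 0.991% downwards. In Pfeiffer 4 rose and 7 fell (34.4%), where 16.2% of all genes changed, 7.9% upwards and 8.31% downwards. The median change of the 32 was 0.15 in OCI-Ly7 and -0.01 in Pfeiffer, and that of all tested genes was 0.01 and 0.00. In OCI-Ly7 24 of the 32 changes were positive and in Pfeiffer 15, most of them without passing the test. Without overlap of siRNA and control arrays were 17 of the 32 in OCI-Ly7 (15 above and 2 below the controls, 53.1%, against 22.9% of all genes), and 14 in Pfeiffer (7 above and 7 below, 43.8%, against 33% of all genes).

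**Figure D1:**
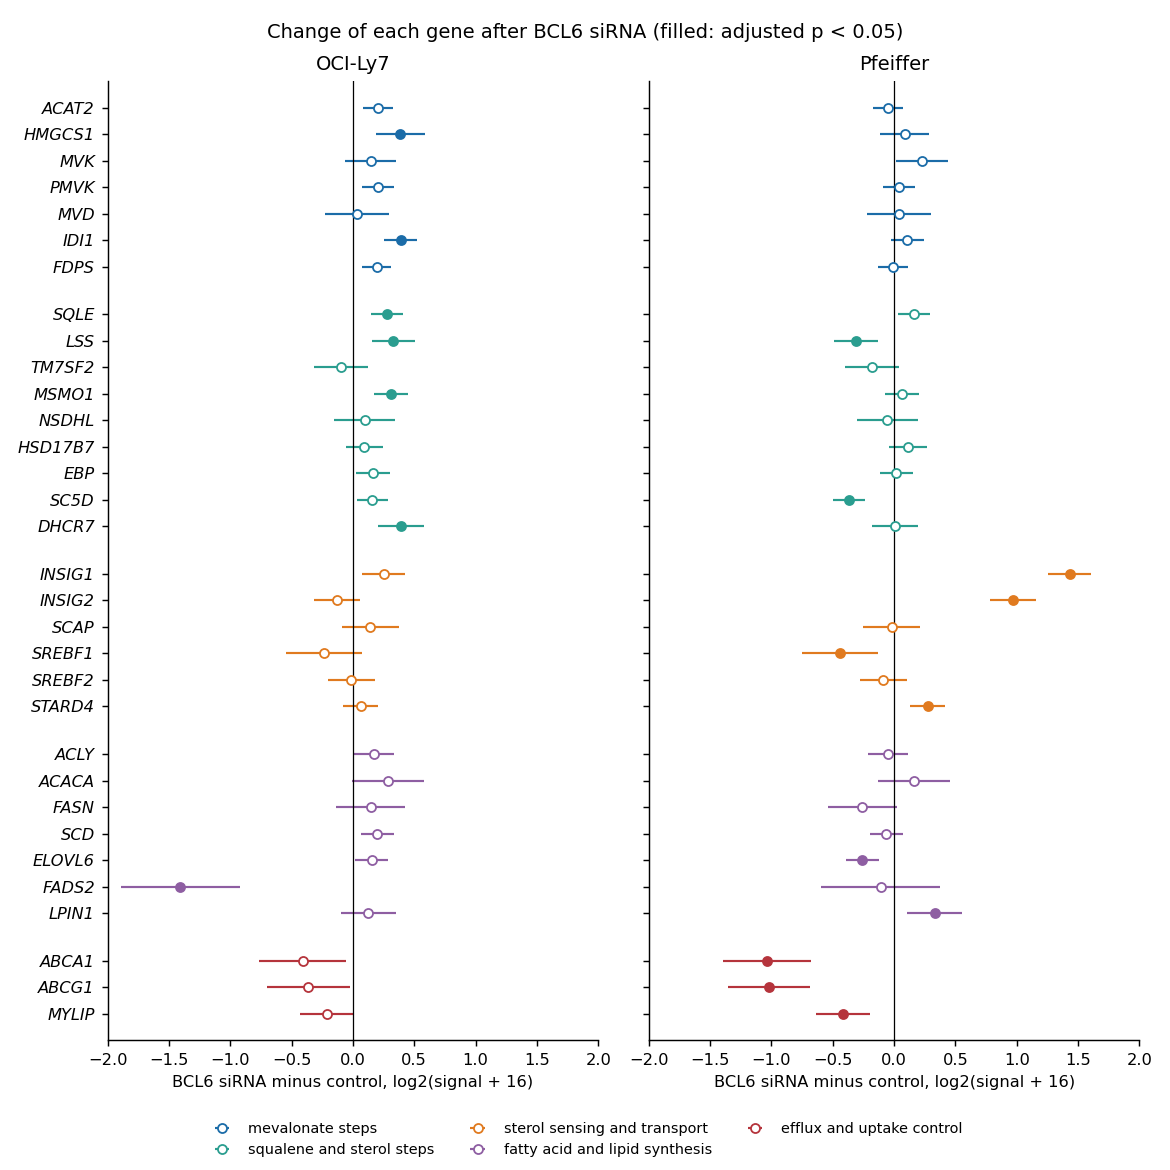
Change of each of the 32 genes in OCI-Ly7 (left) and Pfeiffer (right), as BCL6 siRNA minus control in log2(signal + 16), with genes listed down the page by role and lines giving limma's 95% confidence intervals. Filled points have an adjusted p below 0.05, 7 of them in OCI-Ly7 and 11 in Pfeiffer, with INSIG1 at 1.43 in Pfeiffer the highest, while the FADS2 point in OCI-Ly7 stands for signals as dim as those of markers left out of the test.

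Among the 7 genes of the mevalonate steps, HMGCS1 and IDI1 rose in OCI-Ly7 on their brightest probe sets. None passed the test in Pfeiffer on these. The test of the difference between the lines passed there for neither HMGCS1 nor IDI1 (limma adjusted p = 0.175 and 0.0642). A dimmer probe set of HMGCS1 and of IDI1 rose in Pfeiffer (0.97 and 0.25, limma adjusted p over probe sets = 0.000392 and 0.00448). HMGCS1, which makes the precursor of mevalonate, read 11.68, 11.53 and 11.66 on the OCI-Ly7 siRNA arrays, against 11.21, 11.47 and 11.02 on the OCI-Ly7 control arrays. All siRNA arrays lay above all control arrays, with control replicate 3 the lowest, and the change was 0.39 ± 0.09 (SE, limma adjusted p = 0.037). In Pfeiffer HMGCS1 read 11.76, 11.75 and 11.59 after siRNA, against 11.57, 11.61 and 11.66 in the controls, groups that overlapped (0.09 ± 0.09, limma adjusted p = 0.603). IDI1, which interconverts the isoprenoid units used to make farnesyl diphosphate, read 13.23, 13.13 and 13.00 on the OCI-Ly7 siRNA arrays, against 12.68, 12.85 and 12.66 on the OCI-Ly7 control arrays. The groups stood apart by 0.39 ± 0.06 (SE, limma adjusted p = 0.00405), a fold of 1.31. On the Pfeiffer arrays IDI1 read 13.21, 13.32 and 13.30 after siRNA and 13.17, 13.15 and 13.18 in the controls, close but not overlapping, and the difference of 0.11 did not pass the test (limma adjusted p = 0.292). The other 5 genes had changes between 0.03 (MVD, the decarboxylase that makes isopentenyl diphosphate) and 0.20 (PMVK, phosphomevalonate kinase) in OCI-Ly7, and between -0.05 (ACAT2, the thiolase that joins acetyl-CoA units) and 0.23 (MVK, mevalonate kinase) in Pfeiffer. The siRNA arrays of ACAT2, PMVK and FDPS, farnesyl diphosphate synthase, lay above the controls in OCI-Ly7 although their adjusted p were 0.0827, 0.0972 and 0.086 (limma).

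The call for HMGCS1 in OCI-Ly7 was lost without OCI-Ly7 control replicate 1 or 3, OCI-Ly7 siRNA replicate 1 or 3, or any Pfeiffer control array (0.28 to 0.39, highest limma adjusted p = 0.139). IDI1 kept its call when any of the 12 arrays was left out (limma adjusted p of at most 0.0305). Its probe set, and a second one that also rose in OCI-Ly7 (0.28), carry the suffix _x_at, which marks possible cross-hybridisation. The IDI1 probe set without such a suffix stood at 0.09 in OCI-Ly7 (limma adjusted p = 0.814).

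Of the 9 measured genes of the squalene and sterol steps, 4 rose in OCI-Ly7 and none fell, and in Pfeiffer none rose and 2 fell. On the brightest probe sets the changes differed between the lines for LSS and SC5D. A difference was not shown there for SQLE, MSMO1 and DHCR7 (limma adjusted p = 0.481, 0.12 and 0.0732). For DHCR7 the difference passed with array weights (-0.42, limma adjusted p = 0.0364). It also passed without Pfeiffer control replicate 2 (-0.45, limma adjusted p = 0.0472) or Pfeiffer siRNA replicate 3 (-0.44, limma adjusted p = 0.039). SQLE, the squalene epoxidase and a rate-limiting enzyme of this stretch, read 12.55, 12.48 and 12.61 on the OCI-Ly7 siRNA arrays, against 12.18, 12.41 and 12.22 on the OCI-Ly7 control arrays. The groups did not overlap, and SQLE rose by 0.28 ± 0.06 (SE, limma adjusted p = 0.0255). In Pfeiffer SQLE read 13.26, 13.19 and 13.19 after siRNA and 13.06, 13.07 and 13.02 in the controls, again apart, with a difference of 0.16 ± 0.06 that missed the threshold (limma adjusted p = 0.0787).

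LSS, lanosterol synthase, was the only one of the 32 genes to pass the test in both lines, and on its brightest probe set it did so in opposite directions. It read 10.92, 10.89 and 10.82 on the OCI-Ly7 siRNA arrays, against 10.48, 10.69 and 10.47 on the OCI-Ly7 control arrays, a rise of 0.33 ± 0.08 (SE, limma adjusted p = 0.0495). It read 11.65, 11.55 and 11.87 on the Pfeiffer siRNA arrays, against 12.03, 11.92 and 12.05 on the Pfeiffer control arrays, a change of -0.31 ± 0.08 (SE, limma adjusted p = 0.0191). Groups did not overlap in either line, although Pfeiffer siRNA replicate 3 came close to the lowest control. The changes differed between the lines by -0.64 ± 0.12 (SE, Pfeiffer minus OCI-Ly7, limma adjusted p = 0.00304). A dimmer tested probe set of LSS stood at 0.0013 in OCI-Ly7 and -0.16 in Pfeiffer (limma adjusted p over probe sets = 0.998 and 0.551). With that adjustment the brightest probe set missed the threshold in OCI-Ly7 (limma adjusted p = 0.0621). The OCI-Ly7 rise was lost in 9 of the 12 fits that left out an array (0.29 to 0.36, highest limma adjusted p = 0.166), all but those without OCI-Ly7 control replicate 2 or Pfeiffer siRNA replicate 2 or 3. The Pfeiffer fall was lost without Pfeiffer control replicate 1 or 3 or Pfeiffer siRNA replicate 1 or 2 (-0.30 to -0.24, highest limma adjusted p = 0.0839).

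MSMO1, the oxidase that starts the removal of methyl groups from lanosterol-derived sterols, read 12.91, 12.83 and 12.93 on the OCI-Ly7 siRNA arrays, against 12.58, 12.68 and 12.48 on the OCI-Ly7 control arrays. It rose by 0.31 ± 0.07 (SE, limma adjusted p = 0.0224) with no overlap. In Pfeiffer the groups overlapped, at 13.05, 13.05 and 12.88 after siRNA and 12.92, 12.85 and 13.02 in the controls. DHCR7, the reductase of a final step to cholesterol, read 10.67, 10.54 and 10.43 on the OCI-Ly7 siRNA arrays, against 10.11, 10.26 and 10.10 on the OCI-Ly7 control arrays. It rose by 0.39 ± 0.09 (SE, limma adjusted p = 0.0304), again with no overlap. On the Pfeiffer arrays it read 10.74, 10.82 and 10.96 after siRNA and 10.94, 10.70 and 10.85 in the controls, overlapping values with a difference of 0.01. The OCI-Ly7 calls of SQLE and MSMO1 were lost without OCI-Ly7 control replicate 1 or 3 or OCI-Ly7 siRNA replicate 1 or 3 (0.23 to 0.27 for SQLE and 0.26 to 0.31 for MSMO1), and that of DHCR7 without OCI-Ly7 control replicate 1 or 3 or OCI-Ly7 siRNA replicate 1 or 2 (0.33 to 0.39).

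SC5D, the desaturase that acts just before DHCR7, moved in Pfeiffer. It read 11.70, 11.72 and 11.63 on the Pfeiffer siRNA arrays, against 12.04, 12.08 and 12.03 on the Pfeiffer control arrays, a change of -0.37 ± 0.06 (SE, limma adjusted p = 0.000683). The Pfeiffer groups were separated by more than their own ranges. In OCI-Ly7 the siRNA arrays lay above the controls, at 11.27, 11.28 and 11.33 against 11.19, 11.21 and 11.01, and the difference of 0.16 did not pass the test (limma adjusted p = 0.218). The changes differed between the lines by -0.52 ± 0.09 (SE, limma adjusted p = 0.00121). The remaining 4 sterol enzymes passed in neither line: TM7SF2, a sterol reductase, NSDHL and HSD17B7, which with MSMO1 remove the methyl groups, and EBP, a sterol isomerase. Their changes ran from -0.10 (TM7SF2) to 0.16 (EBP) in OCI-Ly7 and from -0.18 (TM7SF2) to 0.11 (HSD17B7) in Pfeiffer.

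The largest rises were those of the sterol sensors in Pfeiffer. INSIG1 read 13.18, 13.14 and 12.99 on the Pfeiffer siRNA arrays, against 11.75, 11.81 and 11.46 on the Pfeiffer control arrays. Every siRNA array lay more than 1 unit above every control array, and INSIG1 rose by 1.43 ± 0.08 (SE, 95% interval 1.26 to 1.61, limma adjusted p = 2.67e-08), a fold of 2.70. In OCI-Ly7 INSIG1 read 13.02, 12.99 and 13.16 after siRNA and 12.78, 12.81 and 12.82 in the controls, which did not overlap but differed by 0.25 ± 0.08 (SE, limma adjusted p = 0.139). On the same probe set the Pfeiffer siRNA arrays lay beside the OCI-Ly7 siRNA arrays, while the Pfeiffer controls lay below every other array. The changes differed between the lines by 1.18 ± 0.12 (SE, limma adjusted p = 1.50e-05).

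INSIG2, the second INSIG protein, read 10.00, 10.04 and 10.12 on the Pfeiffer siRNA arrays, against 9.08, 8.98 and 9.19 on the Pfeiffer control arrays, a rise of 0.97 ± 0.09 (SE, limma adjusted p = 2.96e-06). In OCI-Ly7 the groups overlapped, at 11.33, 11.53 and 11.27 after siRNA and 11.48, 11.39 and 11.65 in the controls (-0.13 ± 0.09, limma adjusted p = 0.549). The changes differed between the lines by 1.10 ± 0.13 (SE, limma adjusted p = 6.10e-05). Unlike INSIG1, INSIG2 after siRNA in Pfeiffer remained below all OCI-Ly7 arrays. The rises of both genes in Pfeiffer passed the test in all 23 alternative settings that were run, with values of at least 1.17 for INSIG1 and at least 0.91 for INSIG2.

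STARD4, a soluble carrier that moves sterol between membranes, read 11.60, 11.70 and 11.59 on the Pfeiffer siRNA arrays, against 11.43, 11.39 and 11.25 on the Pfeiffer control arrays. It rose by 0.27 ± 0.07 (SE, limma adjusted p = 0.0106) without overlap, but not without Pfeiffer control replicate 3 (0.22, limma adjusted p = 0.0561). In OCI-Ly7 its change was 0.06. SREBF1, which encodes an SREBP and is itself induced by liver X receptors, read 8.38, 8.30 and 8.67 on the Pfeiffer siRNA arrays, against 8.87, 8.84 and 8.98 on the Pfeiffer control arrays. It fell by 0.44 ± 0.14 (SE), with an adjusted p of 0.0497 (limma) that lies at the threshold, and the call was lost in 9 of the 12 fits that left out an array, all but those without OCI-Ly7 control replicate 2 or 3 or Pfeiffer siRNA replicate 3 (-0.47 to -0.37, highest limma adjusted p = 0.154). SREBF1 read 9.28, 9.16 and 9.33 after siRNA in OCI-Ly7, against 9.34, 9.31 and 9.83 in the controls, which overlapped. SREBF2, which encodes the SREBP most tied to cholesterol synthesis, and SCAP, the escort, passed in neither line, with changes of -0.01 and 0.14 in OCI-Ly7 and of -0.09 and -0.02 in Pfeiffer.

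**Figure D2:**
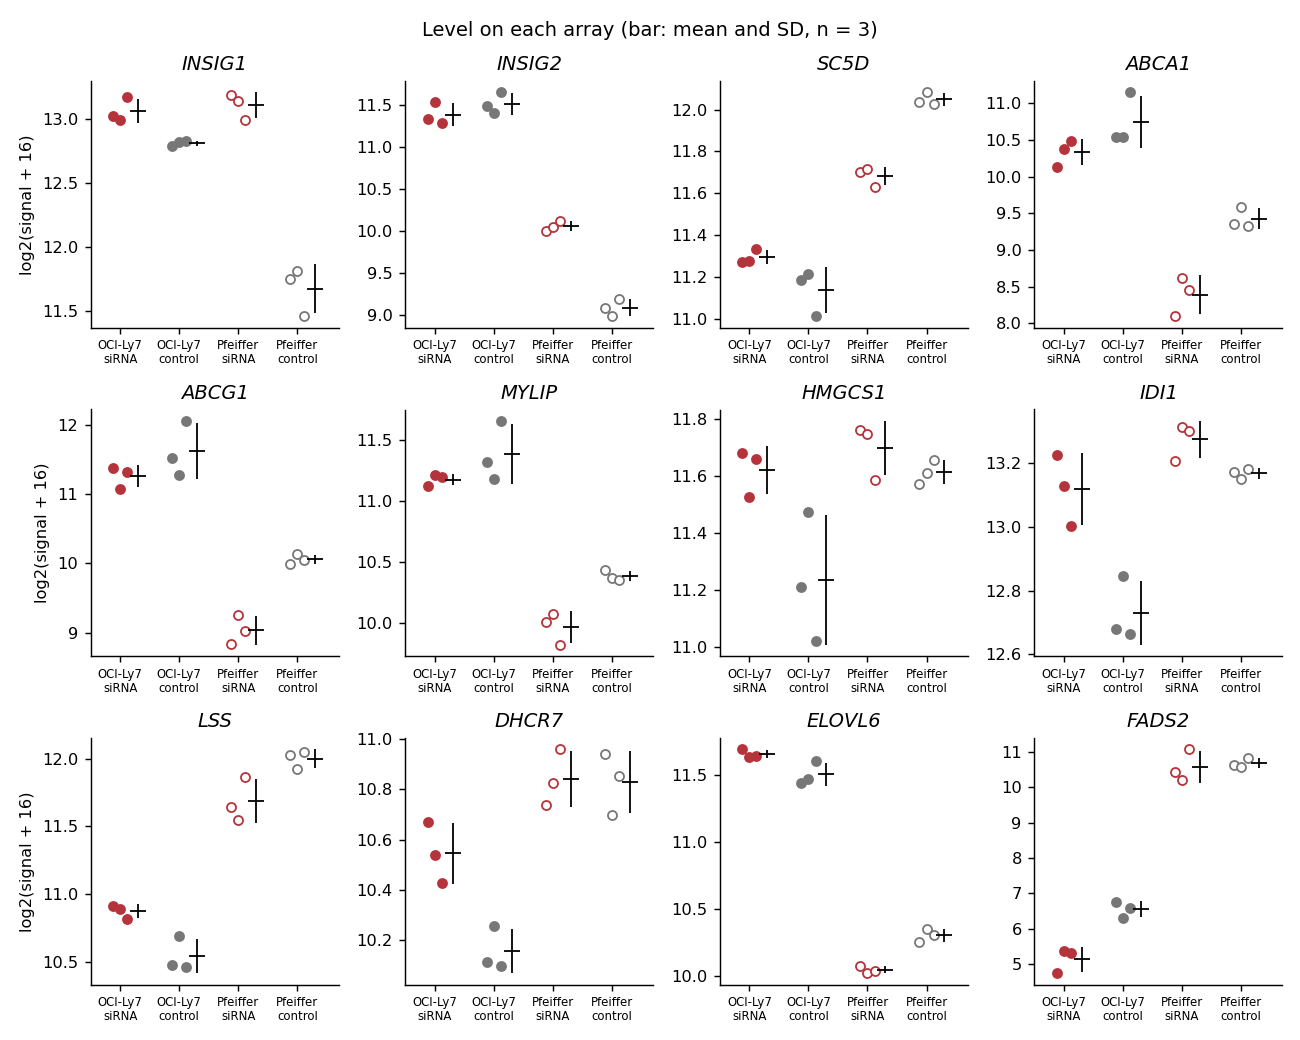
Level of 12 of the genes on every array in log2(signal + 16), each panel with its own vertical axis. Columns from left to right are OCI-Ly7 siRNA and control and Pfeiffer siRNA and control, points are single arrays, and the bars beside them give the mean and SD of 3 arrays. In the INSIG1 panel the 3 Pfeiffer control arrays lie at 11.46 to 11.81, below all 9 other arrays, and in the ABCA1 and ABCG1 panels OCI-Ly7 control replicate 3 lies above the other controls.

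The genes of cholesterol export and uptake control fell in Pfeiffer, 3 of 3, on their brightest probe sets. Each of these calls ended under another choice of probe sets, that of ABCA1 with the mean of all probe sets (-0.47, limma adjusted p = 0.173), that of ABCG1 without probe sets suffixed _s_at or _x_at (-0.48, limma adjusted p = 0.0801), and that of MYLIP under both (-0.23 and -0.15, limma adjusted p = 0.46 and 0.624). For ABCA1 and MYLIP the mean brings in probe sets too dim to be tested alone. ABCA1, which loads cholesterol onto lipid-poor apolipoproteins, read 8.09, 8.61 and 8.46 on the Pfeiffer siRNA arrays, against 9.36, 9.59 and 9.33 on the Pfeiffer control arrays. It fell by 1.04 ± 0.17 (SE, limma adjusted p = 0.000566), to 0.488 of the control level, with no overlap. In OCI-Ly7 ABCA1 read 10.14, 10.38 and 10.48 after siRNA and 10.54, 10.54 and 11.15 in the controls, where all siRNA arrays were below all controls but the difference of -0.41 ± 0.17 did not pass (limma adjusted p = 0.253). ABCG1, which exports cholesterol to mature lipoprotein particles, read 8.83, 9.25 and 9.02 on the Pfeiffer siRNA arrays, against 9.99, 10.13 and 10.05 on the Pfeiffer control arrays. It fell by 1.02 ± 0.16 (SE, limma adjusted p = 0.000405), again with no overlap. In OCI-Ly7 the ABCG1 groups overlapped, at 11.37, 11.07 and 11.31 after siRNA and 11.52, 11.27 and 12.06 in the controls (-0.36, limma adjusted p = 0.285).

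MYLIP read 10.01, 10.08 and 9.82 on the Pfeiffer siRNA arrays, against 10.43, 10.37 and 10.36 on the Pfeiffer control arrays, and fell by 0.42 ± 0.10 (SE, limma adjusted p = 0.0116). Those groups did not overlap. In OCI-Ly7 it read 11.12, 11.21 and 11.19 after siRNA and 11.32, 11.18 and 11.66 in the controls, overlapping values (-0.21, limma adjusted p = 0.339). The test of the difference between the lines gave an adjusted p of 0.117 for ABCA1, 0.0826 for ABCG1 and 0.43 for MYLIP (limma), so a difference in these falls was not shown. OCI-Ly7 control replicate 3 held the highest OCI-Ly7 value of ABCA1, ABCG1, MYLIP and SREBF1 and the lowest of HMGCS1. Without that array the difference passed for ABCA1 (-0.83, limma adjusted p = 0.0242) and ABCG1 (-0.88, limma adjusted p = 0.00654).

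Among the 7 measured genes of fatty acid and lipid synthesis, ELOVL6 fell and LPIN1 rose in Pfeiffer. FADS2 was called lower in OCI-Ly7 from dim signals, and the main enzymes of the pathway did not pass on their brightest probe sets. ACLY, which makes cytosolic acetyl-CoA, ACACA, which makes malonyl-CoA, FASN, the fatty acid synthase, and SCD, the stearoyl-CoA desaturase, had changes of 0.17, 0.29, 0.14 and 0.20 in OCI-Ly7 and of -0.05, 0.16, -0.26 and -0.06 in Pfeiffer. In OCI-Ly7 the siRNA arrays of ACLY and SCD lay above the controls, with limma adjusted p of 0.287 and 0.117. ELOVL6, which lengthens saturated fatty acids, read 10.07, 10.02 and 10.04 on the Pfeiffer siRNA arrays, against 10.25, 10.35 and 10.31 on the Pfeiffer control arrays. It fell by 0.26 ± 0.06 (SE, limma adjusted p = 0.0112), a small change between groups that were each tight. In OCI-Ly7 ELOVL6 read 11.70, 11.64 and 11.65 after siRNA, above the 11.44, 11.48 and 11.61 of the controls, and the changes differed between the lines by -0.41 ± 0.09 (SE, limma adjusted p = 0.00887).

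LPIN1, a phosphatidate phosphatase of triglyceride and phospholipid synthesis, read 9.97, 9.79 and 10.33 on the Pfeiffer siRNA arrays, against 9.73, 9.63 and 9.75 on the Pfeiffer control arrays. It rose by 0.33 ± 0.11 (SE, limma adjusted p = 0.0456), with Pfeiffer siRNA replicate 3 well above the other arrays and a change of 0.18 without it (limma adjusted p = 0.139). The log2 difference of 3′ minus 5′ signal was also highest on that array among the Pfeiffer arrays, at -0.027 for GAPDH and 0.388 for ACTB. Only ACTB thus read higher at its 3′ end. The part of this in the result was not tested. The LPIN1 call was lost in 11 of the 12 fits that left out an array (0.18 to 0.36), all but the fit without Pfeiffer siRNA replicate 2. FADS2, the desaturase that opens the synthesis of polyunsaturated fatty acids, read 4.74, 5.38 and 5.32 on the OCI-Ly7 siRNA arrays, against 6.75, 6.31 and 6.60 on the OCI-Ly7 control arrays. The groups did not overlap and limma called FADS2 lower (adjusted p = 0.00388), but mean signals of 20.1 after siRNA and 78.6 in the controls on the linear scale both lay below the 223.9 at which genes entered the test and below the 131.9 of the T cell marker CD3E on the OCI-Ly7 siRNA arrays. FADS2 entered only through Pfeiffer, so no size is read from its change in OCI-Ly7, which is the 1 fall counted there. In Pfeiffer, where FADS2 was bright, it read 10.44, 10.19 and 11.07 after siRNA and 10.63, 10.58 and 10.83 in the controls, which overlapped (-0.11, limma adjusted p = 0.813). Its call for the difference between the lines (limma adjusted p = 0.0203) rests on those dim OCI-Ly7 signals, and it was lost without Pfeiffer control replicate 1 or 2 (limma adjusted p = 0.0508 and 0.0513).

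Across the list, 6 of the 32 genes passed the test of the difference between the lines (18.8%, against 8.8% of all genes). INSIG1, INSIG2 and FADS2 had the more positive change in Pfeiffer (3.74% of all genes did), FADS2 with the reservation above, and LSS, SC5D and ELOVL6 the more negative one (5.06%). The 2 line comparisons use separate arrays but share limma's estimate of the spread of each gene.

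Other probe sets of the same genes gave a second look, with p-values adjusted over 17659 probe sets. The 32 genes had 78 probe sets, of which 68 were bright enough to be tested, and 18 genes had several. All tested probe sets of a gene pointed the same way in 13 of these 18 in OCI-Ly7 and in 12 in Pfeiffer. INSIG1 rose in Pfeiffer on 3 of 3 probe sets, by 0.75 to 1.43, and LPIN1 on 3 of 3, by 0.33 to 0.85. DHCR7 rose in OCI-Ly7 on 2 of 2, by 0.39 and 0.42. ABCA1 fell in Pfeiffer on 2 of 2 (-1.04 and -0.80), ABCG1 passed on 2 of 4, with all 4 negative, and MYLIP passed on 1 of 5, with all 5 negative in both lines.

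Among the tested probe sets, those of HMGCS1 disagreed most in Pfeiffer. Its dimmer probe set read 10.74, 10.72 and 10.79 on the Pfeiffer siRNA arrays, against 9.81, 9.60 and 9.91 on the Pfeiffer control arrays. That is a rise of 0.97 ± 0.15 (SE, limma adjusted p = 0.000392), where the brighter probe set stood at 0.09. With the mean of both, HMGCS1 rose in Pfeiffer (0.53, limma adjusted p = 0.00155). In OCI-Ly7 the order was the other way, with 0.15 on the dimmer and 0.39 on the brighter probe set. On the dimmer HMGCS1 probe set the difference between the lines passed (limma adjusted p = 0.0251), with the larger rise in Pfeiffer. Which transcripts of HMGCS1 each probe set reads is not given in the sources used here. The second DHCR7 probe set fell in Pfeiffer (-0.31 ± 0.10, limma adjusted p = 0.0413), where the brighter one stood at 0.01. On that second probe set the DHCR7 difference between the lines passed (limma adjusted p = 0.00373). It also passed with the mean of all DHCR7 probe sets (-0.56, limma adjusted p = 0.014). A second IDI1 probe set rose in both lines (0.28 in OCI-Ly7 and 0.25 in Pfeiffer, limma adjusted p = 0.0133 and 0.00448). The dimmer IDI1 probe sets stood at -0.05 and 0.09 in OCI-Ly7 and at 0.17 and -0.28 in Pfeiffer, and passed in neither line. The dimmest ACLY probe set fell in Pfeiffer (-0.28 ± 0.08, limma adjusted p = 0.0339). A further dimmer one did not pass there (-0.20, limma adjusted p = 0.084). On these ACLY probe sets the difference between the lines passed (limma adjusted p = 0.0249 and 0.0482). It also passed for ACLY with the mean of all probe sets (-0.35, limma adjusted p = 0.0176), but not on the brightest.

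**Figure D3:**
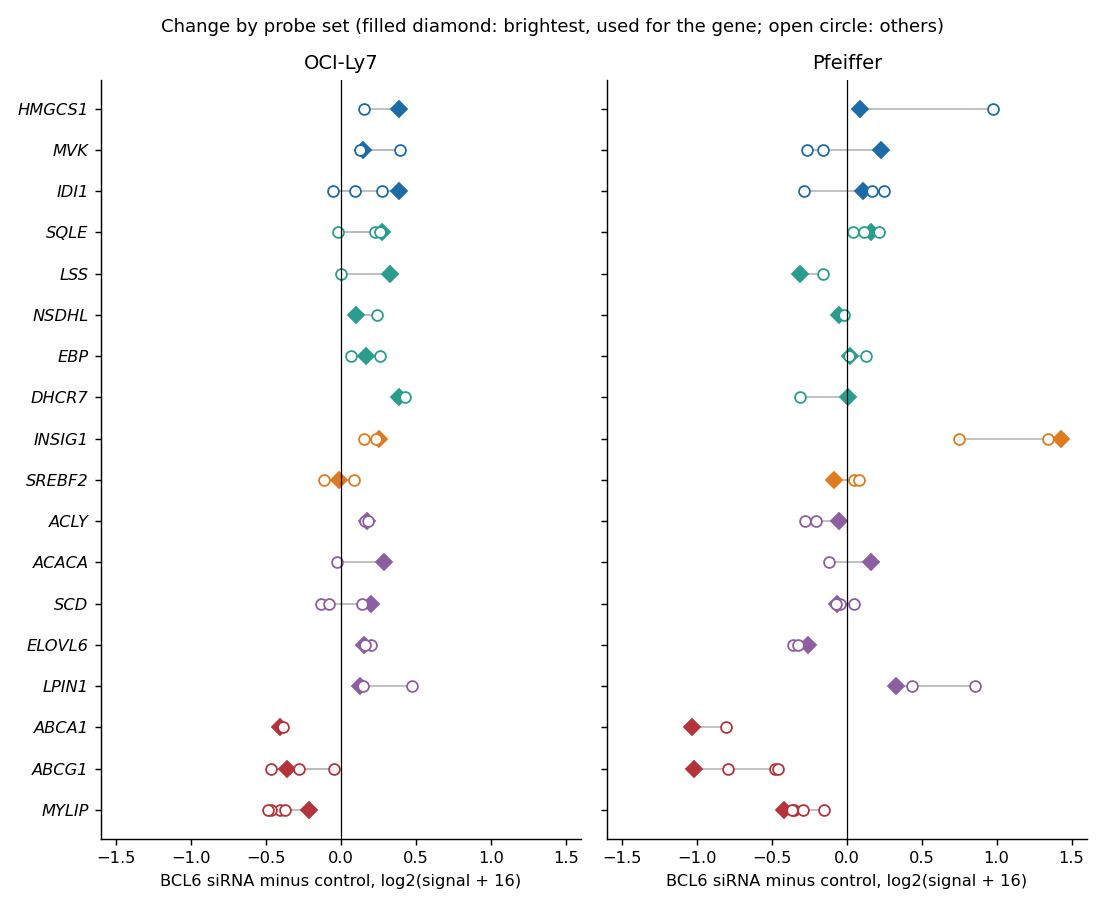
Change on every tested probe set of the 18 genes with several, in OCI-Ly7 (left) and Pfeiffer (right), as BCL6 siRNA minus control in log2(signal + 16). Diamonds mark the brightest probe set, which stands for the gene elsewhere, circles mark the others, and colours mark the roles as in the plot of changes by gene. The HMGCS1 circle at 0.97 in Pfeiffer lies far from its diamond at 0.09, while the INSIG1 symbols in Pfeiffer all lie at 0.75 or higher.

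At baseline the lines themselves differed in nearly all of these genes. In Pfeiffer controls set against OCI-Ly7 controls, 20 of the 32 were higher and 11 lower (96.9%), where 79.6% of all genes differed, 42.5% higher and 37.1% lower. The median difference of the 32 was 0.41, against 0.07 for all tested genes. FADS2 is among the 20, although it entered the test only because it was bright in Pfeiffer. Synthesis enzymes were mostly higher in Pfeiffer, while 5 of the 6 sensing and transport genes and 3 of 3 genes of export and uptake control were lower. Each line is represented by its own arrays only, so anything else that distinguished their cultures cannot be told apart from the line. The log2 difference of 3′ minus 5′ signal of ACTB was 0.278 to 0.388 on the Pfeiffer arrays and 0.109 to 0.201 on the OCI-Ly7 arrays. For GAPDH the lines overlapped. The part of this in the baseline differences was not tested.

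Of the mevalonate genes 6 of 7 were higher in Pfeiffer, and so were 9 of 9 of the squalene and sterol steps. MVD averaged 9.81 ± 0.12 in Pfeiffer controls and 8.08 ± 0.21 in OCI-Ly7 controls (SD, n = 3 each), a difference of 1.72 ± 0.12 (SE, limma adjusted p = 3.25e-09). ACAT2 was higher by 1.21, FDPS by 0.77, and HMGCS1, IDI1 and PMVK by 0.38, 0.44 and 0.28. For HMGCS1 and IDI1 that direction held for the brightest probe set and turned with the mean of all probe sets (-0.49 and -0.24). MVK did not differ beyond the error on its brightest probe set (-0.12 ± 0.10, limma adjusted p = 0.265). A dimmer MVK probe set was higher in Pfeiffer (0.61, limma adjusted p over probe sets = 0.00472). Its remaining tested probe set did not pass (0.34, limma adjusted p over probe sets = 0.245). TM7SF2 read 11.50, 11.35 and 11.46 on the Pfeiffer control arrays, against 8.85, 8.92 and 8.70 on the OCI-Ly7 control arrays, a fold of 6.12. LSS and NSDHL were each higher by 1.45, SC5D by 0.91, SQLE by 0.78, EBP by 0.69, DHCR7 by 0.67 and MSMO1 by 0.35. With the mean of all probe sets the difference of SC5D was 0.27 and did not pass (limma adjusted p = 0.0678). HSD17B7 had the smallest called difference, 0.18 ± 0.07 (limma adjusted p = 0.0312), which was lost without OCI-Ly7 control replicate 1 or 3 or Pfeiffer control replicate 1 or 2 (0.10 to 0.18, highest limma adjusted p = 0.182). In the sterol steps, all control arrays of Pfeiffer lay above all control arrays of OCI-Ly7, but the share of all genes set apart in this way at baseline was not counted.

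In fatty acid synthesis the early enzymes were higher in Pfeiffer and the modifying enzymes were split. ACLY was higher by 1.38, ACACA by 2.14 and FASN by 1.94. With the mean of all probe sets ACACA was higher by 1.31 and FASN by 0.66. FASN averaged 10.85 in Pfeiffer controls, which lay within 0.01 of each other, and 8.91 ± 0.29 in OCI-Ly7 controls (SD, n = 3). FADS2 was bright on the Pfeiffer control arrays and dim on the OCI-Ly7 control arrays, at the values given above, and since that brightness in Pfeiffer let it into the test, no difference is read for it. ELOVL6 (-1.21 ± 0.06, SE), LPIN1 (-1.15) and SCD (-0.42) were lower in Pfeiffer. The remaining probe sets of SCD did not share that sign, with differences from 0.13 to 1.06.

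Among the sensors, INSIG2 averaged 9.08 ± 0.10 in Pfeiffer controls and 11.51 ± 0.13 in OCI-Ly7 controls (SD, n = 3 each), a difference of -2.42 ± 0.09 (SE, limma adjusted p = 1.50e-12). INSIG1 (-1.14), SREBF1 (-0.60), SREBF2 (-0.37) and STARD4 (-0.21) were also lower in Pfeiffer, whereas SCAP was higher by 1.11. ABCG1 averaged 10.06 ± 0.07 in Pfeiffer controls and 11.62 ± 0.40 in OCI-Ly7 controls (SD, n = 3 each), a difference of -1.56 ± 0.16 (SE, limma adjusted p = 2.26e-07). ABCA1 was lower as well (-1.32), as was MYLIP, which averaged 10.39 in Pfeiffer controls and 11.39 in OCI-Ly7 controls. The genes of export and uptake control thus stood lower in Pfeiffer before the siRNA and fell there with it. INSIG1 and INSIG2 stood lower in Pfeiffer before the siRNA and rose with it. The baseline differences and the changes after siRNA use the same control arrays.

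**Figure D4:**
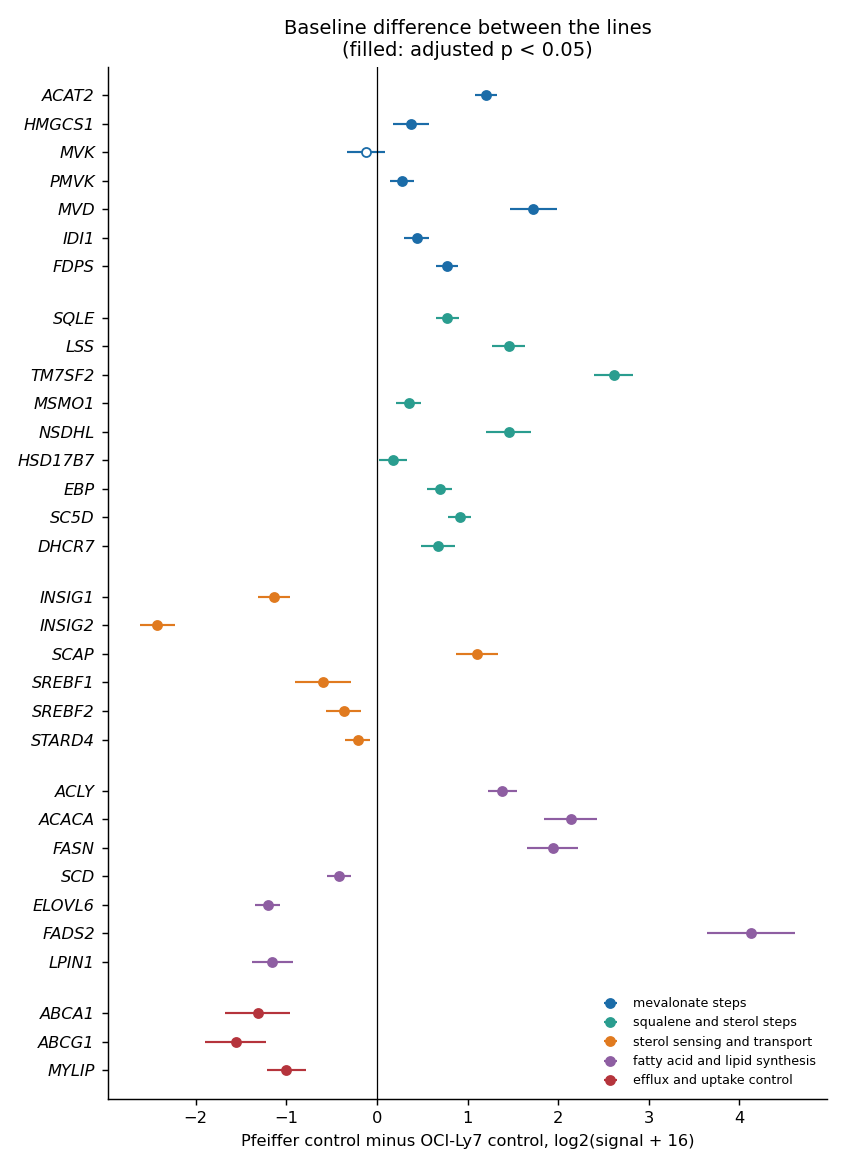
Baseline difference of each of the 32 genes, as Pfeiffer control minus OCI-Ly7 control in log2(signal + 16), listed by role with limma's 95% confidence intervals. Points right of 0 are higher in Pfeiffer, filled points have an adjusted p below 0.05, and the only open point is MVK at -0.12, while INSIG2 at -2.42 is the lowest. FADS2, the point farthest to the right, passed the brightness filter only through Pfeiffer.

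The list was set beside 30 other genes of the same pathways (proteases, degradation factors and receptors of the sterol sensing system, sterol transport, fatty acid elongation and activation). Of these, 24 were tested and 0 passed in OCI-Ly7 (limma), where 2.68% of all genes did. An unadjusted limma p under 0.05 in OCI-Ly7 was reached by 6 of these 24 and by 18 of the 32 listed genes. The share of all genes at that looser threshold was not counted. TECR, an enzyme of fatty acid elongation, and ERLIN1, an endoplasmic reticulum protein of the INSIG degradation pathway, had the lowest p there, with changes of 0.25 and -0.25 (limma adjusted p = 0.131 and 0.189). In Pfeiffer 2 of the 24 fell (8.33%, near the 8.31% of all genes), ACSL1, which activates long-chain fatty acids (-0.54, limma adjusted p = 0.00218), and ACACB, the mitochondrial acetyl-CoA carboxylase (-0.46, limma adjusted p = 0.0108). NR1H3, a liver X receptor, had changes of 0.33 in OCI-Ly7 and 0.00 in Pfeiffer and passed in neither (limma adjusted p = 0.22 and 0.995).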

How the data were processed

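The authors deposited log2 values for 54675 probe sets on 12 arrays. MAS5 and affy, without versions, are named in the submitters' processing notes. On the linear scale each array's mean after trimming 2% at each end was 500.0, so the deposited log2 signals were already scaled and were not normalized again. Median signals were 71.3 to 85.0. Precision is limited by the number of arrays. The platform annotation gave 1 symbol to 41091 probe sets, several to 1801 and none to 11721, with 62 controls. RefSeq held the gene IDs of 41037, and 0 symbols changed.

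Signals became log2(signal + 16), which understates changes of dim genes. Genes in the upper 0.5 by the higher line mean were tested, from a level of 7.91 upwards. limma 3.58.1 (R 4.3.3, eBayes with a trend) was fitted to 4 group means, with 8 residual degrees of freedom, and was tested on simulated data. Sequences are RefSeq's. Python 3.11.15 with matplotlib 3.10.9 drew the figures. The genes, their roles and the tests were chosen with earlier results of these data known. All listed genes are accounted for by role, with array values for those that passed in either line or in the difference, and the 2 genes of lowest p per line for the other pathway genes. The alternatives tried were pseudocounts of 1 and 64, quantile normalization, other filters, other choices of probe set, limma without a trend, with array weights, per line or with a replicate block, and each array left out. Batches and scan dates are not in the labels and were not tested.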

Additional observations from a re-analysis of the deposited data

Results flagged for a closer look

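For 6 of the genes and for BCL6 itself the change after siRNA differed between the lines in limma's test of the difference (Pfeiffer minus OCI-Ly7, adjusted over all tested genes). The difference was 1.18 for INSIG1, 1.10 for INSIG2 and 1.30 for FADS2, and it was -0.64 for LSS, -0.52 for SC5D and -0.41 for ELOVL6. For BCL6 it was -0.54 (adjusted p = 0.00496, limma), with 51.3% of the control signal left in Pfeiffer and 74.6% in OCI-Ly7. The depth of the knockdown and the line therefore cannot be told apart as the setting of these differences. The type of control oligonucleotide, which the labels leave unsettled for Pfeiffer, cannot be told apart from the line either. INSIG1, INSIG2, ELOVL6 and BCL6 kept their calls in all 22 alternatives run for each. SC5D and LSS lost theirs only with the mean of all probe sets (-0.22 and -0.43), which for each brings in a probe set too dim to be tested alone. The FADS2 value rests on OCI-Ly7 signals as dim as those of markers left out of the test, in a gene that entered only through Pfeiffer. FADS2 lost its call in 4 alternatives, among them a pseudocount of 64 (0.66).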

How the results depend on the processing

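Counts in OCI-Ly7 depended on the settings more than those in Pfeiffer. The 6 rises in OCI-Ly7 became 3 with no filter on dim genes, 2 with all probe sets of a gene averaged, 3 of 21 tested without _s_at and _x_at probe sets, 1 in limma without a trend, and 1 to 6 with an array left out (1 without OCI-Ly7 control replicate 1 or OCI-Ly7 siRNA replicate 1). Array weights gave 8. The 1 fall there became 0 with the mean of all probe sets or without _s_at and _x_at probe sets, and FADS2, the gene concerned, had a second, dimmer probe set that pointed the other way (0.68). In Pfeiffer the 4 rises became 2 to 4 with an array left out (2 without Pfeiffer control replicate 3), and the 7 falls became 4 without _s_at and _x_at probe sets and 2 with probe sets averaged. Negative differences between the lines, 3 in the report, numbered 5 in the upper 0.25 of genes, 5 with array weights, 5 when each probe set was tested alone (an alternative chosen after seeing the data), and 3 to 6 with an array left out (6 without OCI-Ly7 control replicate 3). The replicate numbers did not pair the samples, with correlations of deviations of -0.08 to 0.083 between arrays of the same number in a line. With a replicate block OCI-Ly7 had 1 rise and the difference 5 negative calls, and no other count moved by over 1.5 times. At baseline the 20 genes higher in Pfeiffer became 9 of 21 tested without _s_at and _x_at probe sets. The sign at baseline turned with the mean of all probe sets for HMGCS1 (-0.49), IDI1 (-0.24), SCD (0.45) and SREBF1 (0.40), and without _s_at and _x_at probe sets for IDI1 (-1.08). In Pfeiffer the mean of all probe sets ended the calls of ABCA1 (-0.47), MYLIP (-0.23), SC5D (-0.27) and LSS (-0.24), and leaving out _s_at and _x_at probe sets ended those of ABCG1 (-0.48) and MYLIP (-0.15). ELOVL6 lost its call with the Pfeiffer arrays alone (-0.26, limma adjusted p = 0.0574). The mean and suffix settings replace or dilute the brightest probe set by construction, and the cause of the other changes was not tested.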
